A study of Rattus norvegicus with 4 samples.

Results

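Colony-stimulating factors (CSFs), their receptors and a set of transcription factors direct the survival and differentiation of myeloid cells, the lineage of macrophages, microglia and granulocytes. Of the 10 genes chosen by name (Csf1r, Csf1, Csf2, Csf2ra, Csf3, Csf3r, Spi1, Cebpa, Cebpb and Runx1), 9 had a probe under that name on the array. The array lists 35658 distinct names, genes and unnamed transcripts together, and these 9 genes were read by 12 of its 41012 probes. Csf2ra, the ligand-binding subunit of the GM-CSF receptor, was not analysed here. Spi1 was listed under its older name Sfpi1, and Csf3r under a predicted-gene name.

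The RNA came from 4 biological replicates of cultured olfactory ensheathing cells, glia that accompany olfactory axons from the nose to the bulb, taken from male Fischer rats. Flow cytometry on the neurotrophin receptor p75 split the cells into p75High and p75Low samples, each of 98% purity. Each of the 4 two-colour Agilent arrays carried the p75High sample of a replicate in Cy5 and the p75Low sample of the same replicate in Cy3. No array exchanged the dyes, so a dye effect on a single gene and a difference between the populations cannot be told apart. The labels give no age, no dissected region and no other treatment for either population, and they do not say whether replicates were separate animals, so p-values measure only the spread between these samples. Purity in the labels refers to p75 and not to cell type.

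M-CSF, the product of Csf1, binds the receptor tyrosine kinase encoded by Csf1r, on which microglia and most macrophages depend. GM-CSF (Csf2) signals through a specific alpha chain and a shared beta chain, and G-CSF (Csf3) through Csf3r, which is best known from neutrophils. PU.1, the product of Spi1, drives myeloid genes including Csf1r, together with C/EBP alpha, C/EBP beta and Runx1.

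The probe sequences that follow are shown because the Csf1r result differs between probes, and for the receptor and factor genes set beside it. They are given as in the array file, 5′ to 3′, with the whole 60-base probe for 5 of them and 30 bases for the others. Capitals mark ATTTA, the core of the AU-rich elements that shorten the life of cytokine mRNAs, and are used for no other feature.
Csf1r junction probe: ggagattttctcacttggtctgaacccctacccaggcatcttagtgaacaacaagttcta
Csf1r upstream probe, bases 1 to 30: attgatgagcctgcacactaccggaggttt
Csf1r unplaced probe, bases 1 to 30: tttctccatcctattcccattttaaaaaac
Csf3r: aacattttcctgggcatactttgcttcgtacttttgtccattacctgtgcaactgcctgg
Csf3, bases 16 to 45: agtttATTTAtctctATTTAatATTTAtgt
Spi1: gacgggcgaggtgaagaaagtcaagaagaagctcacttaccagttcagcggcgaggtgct
Cebpa: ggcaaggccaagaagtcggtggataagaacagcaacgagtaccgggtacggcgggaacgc
Cebpb: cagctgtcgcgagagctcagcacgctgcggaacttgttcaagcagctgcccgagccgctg

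The 3 Csf1r probes were designed on different transcript records, and 2 of them have coordinates. On rn4, the build named in the array headers, the junction probe (A_44_P257582) spans chr18:57105231-57105932. These 702 bases exceed the probe length by 642 bases, so its alignment is split, and it is called the junction probe for that reason. It starts at base 2663 of its record. The upstream probe (A_44_P503932) lies at chr18:57061458-57061517 and starts at base 61 of another record. The gap between these 2 probes is 43713 bases, while the RefSeq gene model of Csf1r in GRCr8, another build, is 26653 bases long. The nearest other named gene probe on its lower-coordinate side belongs to Pdgfrb (chr18:57053405-57053463), and in GRCr8 there is 1 lncRNA gene between Pdgfrb and Csf1r. The unplaced probe (A_44_P226109) has no coordinates in the array file and starts at base 3261 of yet another record. The exon or intron in which any of the 3 probes lies was not analysed here.

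Sorting was checked first on Ngfr, which encodes p75. Its log2 ratios of p75High over p75Low were 6.07, 6.17, 5.02 and 5.96 for replicates 1 to 4 (5.80 ± 0.53, SD, n = 4, limma adjusted p = 0.0262), so each array matched its labels. By array, 22464 to 28062 probes stood well above background in p75High and 23044 to 26174 in p75Low. Probes that did so in 1 of the channels on 3 or more of the 4 arrays were tested, which left 24872. Of these, 65 were higher in p75High past an adjusted p of 0.05 (0.261%) and 98 were lower (0.394%). Those 163 ratios were between 2.68 and 7.54 in size.

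Among the CSF and myeloid factor genes, a single probe passed the test. The junction probe of Csf1r fell in p75High cells, and no other tested probe of these genes passed. Csf3r and Spi1 had negative mean ratios that varied widely between arrays, and Cebpa and Cebpb had mean ratios below 0.5 in size. Of the 12 probes, 9 (7 genes) passed the filter on dim probes, with 1 lower, 0 higher and 8 not past the threshold, against 0.655% of all probes past it in either direction. At an unadjusted p under 0.05, 2 of the 9 were lower and 0 higher, against 12.5% of all probes. The median ratio of the 9 was -0.40, and that of all tested probes -0.028. A filter of this kind can pass a probe through 1 population alone, so these counts describe the 9 probes and not all 12.

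Csf1r, the M-CSF receptor, was lower in p75High cells by 1 of its 3 probes. In p75High cells its junction probe had normalized log2 intensities of 8.94, 8.46, 7.39 and 10.78 for replicates 1 to 4, against 14.51, 15.35, 13.59 and 16.42 in p75Low cells. Every p75High value lay below every p75Low value, a separation in this direction seen in 3.85% of the probes read on all 4 arrays (7.67% in either direction). Of the 9 tested probes it was the 1 without overlap. Within arrays the log2 ratios were -5.57, -6.90, -6.20 and -5.64 (-6.08 ± 0.61, SD, n = 4, SE 0.36, limma adjusted p = 0.0262, 95% interval -7.02 to -5.13). The mean corresponds to a level 67.5-fold higher in p75Low. Of the 24872 probes tested, 7 had a lower mean ratio. The probe was still well above background in p75High cells on all 4 arrays. In bulk RNA, fewer cells that express a gene and less RNA per cell cannot be told apart. Without any 1 replicate the ratio stayed between -6.25 and -5.80 but the adjusted p was between 0.100 and 0.144.

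The other probes of Csf1r did not show this difference, but they were too dim to show it. Their p75Low levels were 7.02 to 8.42 (upstream) and 6.51 to 6.75 (unplaced). From such levels a fall of the size found for the junction probe could not have been shown. With the upstream probe, p75High cells had 7.96, 7.96, 8.06 and 8.82 for replicates 1 to 4, and p75Low cells had 7.02, 7.92, 7.78 and 8.42. The populations overlapped, although each array had a positive ratio (0.41 ± 0.38, limma adjusted p = 0.596, 95% interval -0.39 to 1.21). The unplaced probe gave 6.24, 6.19, 6.27 and 6.84 in p75High cells and 6.59, 6.68, 6.51 and 6.75 in p75Low cells. It was well above background on 2 arrays in p75High and on 4 in p75Low, and its ratio was -0.25 ± 0.25 (limma adjusted p = 0.724, 95% interval -0.98 to 0.49).

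Set against each other on the same array, the junction ratio minus the upstream ratio was -6.51, -6.93, -6.48 and -6.04 (-6.49 ± 0.37). The junction ratio minus the unplaced ratio was -5.22, -6.41, -5.96 and -5.73 (-5.83 ± 0.50). All 4 arrays had both differences in the same direction. The exact two-sided sign-flip permutation test gave p = 0.125 for each, which is the smallest p that 4 arrays allow. The upstream and unplaced probes were too dim in p75Low to show a fall of the junction probe's size. Nothing about the stretch of Csf1r that is read is therefore drawn from these differences. The median over the 3 probes followed the unplaced probe and gave no call for the gene (-0.25, limma adjusted p = 0.712, against 0.0158 to 0.144 over the other settings for the junction probe). The Pdgfrb probe had ratios of -0.095, -0.031, -4.19 and 0.029 and did not pass the filter on dim probes.

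Csf3r, the G-CSF receptor, was read by a probe (A_44_P220455) at chr5:145392260-145392319. In p75High cells it had 6.31, 6.20, 6.61 and 7.19, against 6.52, 11.33, 9.85 and 11.76 in p75Low cells. Replicates 2, 3 and 4 separated the populations widely, and replicate 1 did not. The ratios were -0.21, -5.13, -3.25 and -4.58 (-3.29 ± 2.20, limma adjusted p = 0.319, 95% interval -5.72 to -0.86). All 4 were negative. Of the 9 tested probes, 5 had the same sign on all arrays (3 negative and 2 positive), against 25.5% of the probes read on all arrays. Without replicate 1 the mean was -4.32 (limma adjusted p = 0.187), and over all settings the adjusted p was between 0.154 and 0.578.

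**Figure D1:**
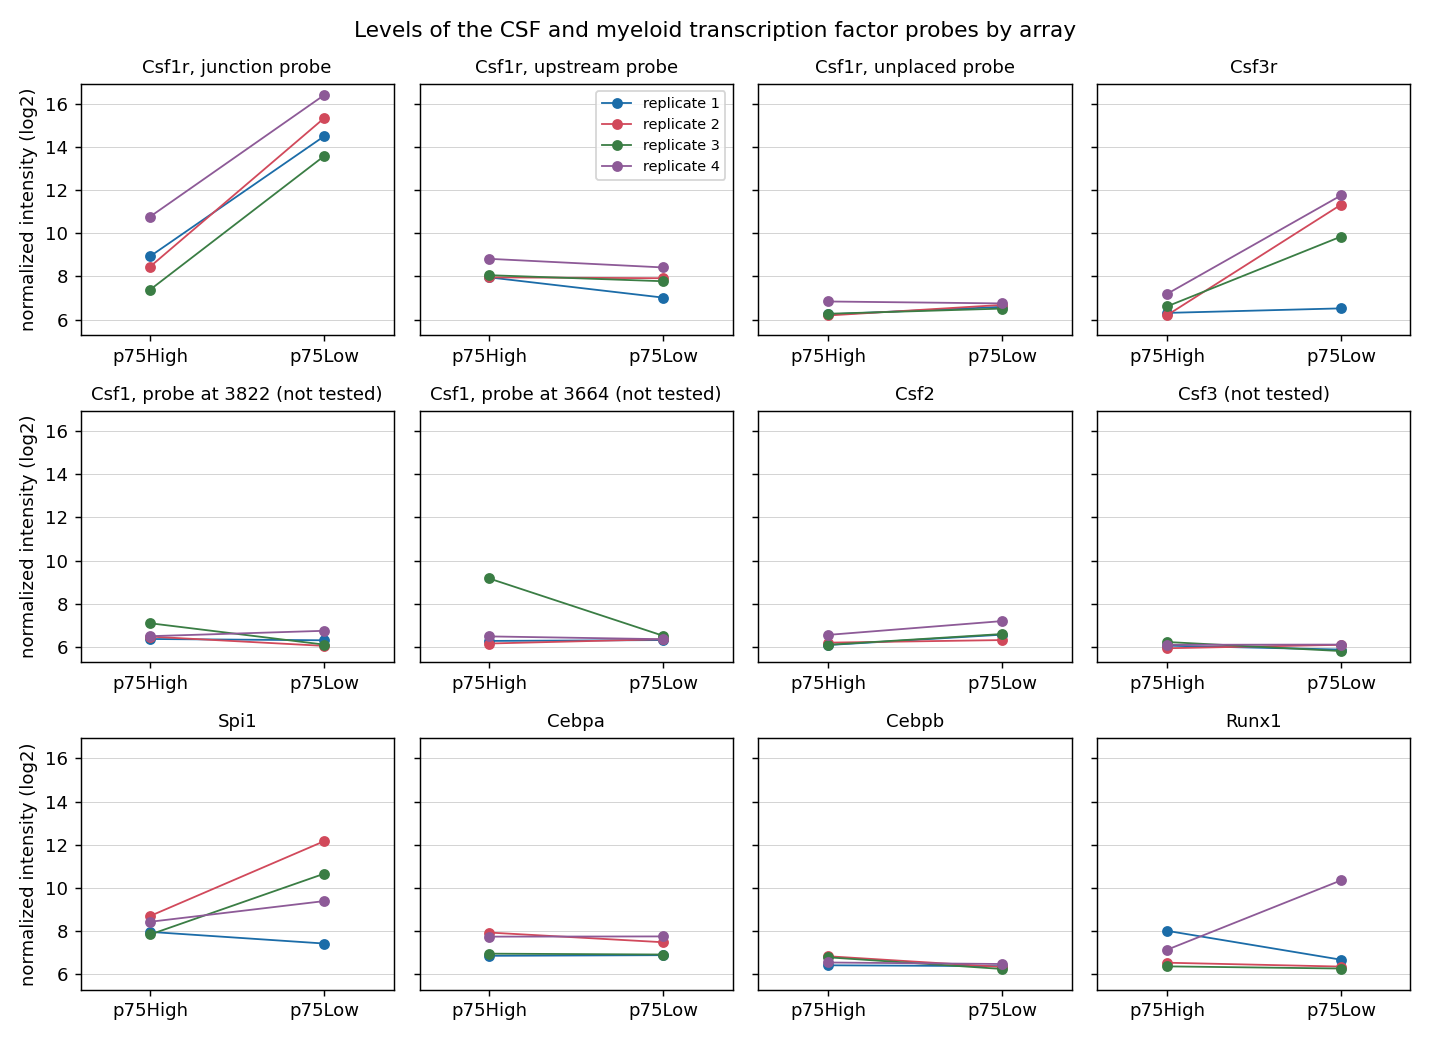
Normalized log2 intensity of each CSF and myeloid factor probe in p75High cells (left of each panel) and p75Low cells (right), with a line joining the 2 channels of each replicate's array. The Csf1r junction probe was lower in p75High on each array (7.39 to 10.78 in p75High, 13.59 to 16.42 in p75Low), while its other 2 probes ran nearly level, and the Csf3r and Spi1 lines of replicate 1 lack the slope of replicates 2 and 3.

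The ligand genes gave weak signals in both populations. Csf1, which encodes M-CSF, had 2 probes on chromosome 2, and neither passed the filter. The probe at chr2:203292994-203293053 (A_42_P695042) had 6.27, 6.15, 9.17 and 6.48 in p75High cells and 6.31, 6.35, 6.51 and 6.35 in p75Low cells. Replicate 3 of p75High alone stood above the rest. The probe at chr2:203292743-203292773 (A_44_P343859) had ratios of 0.058, 0.42, 1.00 and -0.25. With no filter, the ratios of the 2 Csf1 probes were 0.64 and 0.31 (limma adjusted p = 0.735 and 0.734).

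Csf2, which encodes GM-CSF, was read at chr10:39665887-39665946 (A_44_P247880). It was not well above background on any array in p75High cells (6.08, 6.19, 6.09 and 6.55) and was so on 3 of 4 arrays in p75Low cells (6.56, 6.31, 6.59 and 7.19). Its mean ratio of -0.43 ± 0.22 corresponds to a level 1.35-fold higher in p75Low. The ratio was negative on each array but did not pass (limma adjusted p = 0.551, 95% interval -1.16 to 0.29). The interval includes no difference, and the levels of the populations overlapped. The fold was also computed with a floor under the p75High level. This floor takes, on each array, the higher of the dim probe's own level and the lowest level among probes well above background. With the floor the fold was again 1.35, so it is an estimate and not a lower limit.

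Csf3, which encodes G-CSF, was read at chr10:87475700-87475760 (A_44_P458896). It was not well above background on any array in p75High (5.93 to 6.22) or p75Low (5.80 to 6.10), so no fold is given. Its probe holds 4 matches to ATTTA on the printed strand, of which 3 are in the stretch shown above. At least 2 such matches occur in 189 of the 41012 probes (0.461%).

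Spi1, which encodes PU.1, was read at chr3:75475250-75475309 (A_44_P433783) and was well above background in both populations on all 4 arrays. In p75High cells it had 7.95, 8.69, 7.83 and 8.42, against 7.41, 12.16, 10.65 and 9.38 in p75Low cells. The p75High values kept within a narrow band and the p75Low values did not (SD 0.40 in p75High, 2.01 in p75Low). Replicate 1 had the single positive ratio, with 0.54, -3.47, -2.82 and -0.95 for replicates 1 to 4. The mean of -1.68 ± 1.82 did not pass (limma adjusted p = 0.461, 95% interval -3.72 to 0.37). On the array of replicate 1, Spi1 had its positive ratio and Csf3r was dim in both populations (6.31 in p75High, 6.52 in p75Low). The Csf1r junction ratio on that array was -5.57. This is a single array, and a link between these genes was not tested.

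Neither C/EBP gene passed the test. Cebpa, at chr1:87627054-87627113 (A_43_P15494), had 6.84, 7.92, 6.94 and 7.73 in p75High cells and 6.87, 7.47, 6.90 and 7.74 in p75Low cells. The levels of the populations followed each other array by array, and the ratio was 0.11 ± 0.23 (limma adjusted p = 0.878, 95% interval -0.62 to 0.84). Cebpb, at chr3:158827280-158827339 (A_44_P348922), was the mean of 10 spots and had 6.40, 6.82, 6.77 and 6.53 in p75High cells, against 6.36, 6.32, 6.23 and 6.46 in p75Low cells. It was well above background on 3 arrays in p75High and 1 in p75Low, and its ratio was 0.29 ± 0.27 (limma adjusted p = 0.685, 95% interval -0.46 to 1.03). The intervals of both genes leave out a ratio of the size found for the Csf1r junction probe. From p75Low levels as low as these (6.23 to 7.74), a fall of that size could not have been shown, so nothing is drawn from this.

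Runx1, a partner of the CBF beta subunit needed to form blood stem cells, was read at chr11:32623591-32623650 (A_44_P228942). It had 8.0, 6.52, 6.35 and 7.12 in p75High cells and 6.66, 6.34, 6.25 and 10.34 in p75Low cells. The p75Low value of replicate 4 stood far above the rest, and the ratio on that array was -3.22, against 1.34, 0.17 and 0.10 on the others. The mean of -0.40 ± 1.96 did not pass (limma adjusted p = 0.852, 95% interval -2.59 to 1.79). It turned to 0.54 without replicate 4 (limma adjusted p = 0.683, with 0.683 to 0.983 over all settings).

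**Figure D2:**
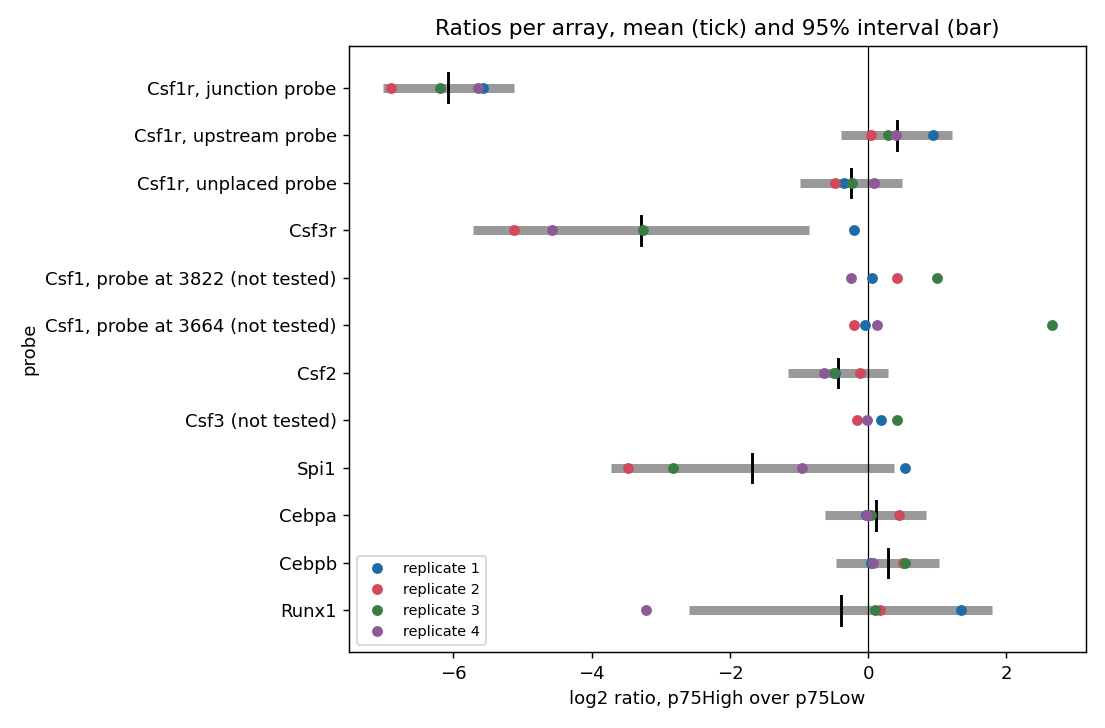
Log2 ratio of p75High over p75Low for each probe, with a point for each array, a tick for the mean and a bar for the 95% interval of the limma fit where the probe was tested (n = 4 arrays). The junction probe of Csf1r lies at -6.08 with an interval of -7.02 to -5.13, and the interval of Csf3r (-5.72 to -0.86) is wide because replicate 1 read -0.21.

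Other genes of the pathway were read from a list of 69 set by role, of which 50 genes with 63 probes were tested. Of these probes 5 were lower in p75High, 0 were higher and 58 did not pass, against 0.394% lower and 0.261% higher over all tested probes. At an unadjusted p under 0.05, 20 were lower and 3 higher, against 12.5% of all tested probes in either direction. The median ratio was -1.41, beside -0.028 for all tested probes. The list was drawn up with earlier results of these data known, so its direction is a description.

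Other ligands and receptor chains did not pass. Of 3 tested ligand probes, Kitlg, the ligand of the Kit receptor, had the smallest p (2.45 ± 2.57, limma adjusted p = 0.440), and Il5 read -0.072 ± 0.19. Of 3 tested receptor probes, 0 passed and 2 were higher at an unadjusted p under 0.05, against 12.5% of all tested probes in either direction. Kit, a receptor tyrosine kinase of the same class as Csf1r, had ratios of 1.20, 1.94, 1.05 and 2.43 (1.65 ± 0.65, limma adjusted p = 0.239). Il3ra, the alpha chain of the interleukin-3 receptor, had 1.11 ± 0.51 (limma adjusted p = 0.330). These 2 receptors had positive ratios on all 4 arrays, where the Csf1r junction probe had negative ones. Csf2rb, the beta chain shared by the receptors of GM-CSF and interleukin-3, is named after its values were seen. It had ratios of -4.67, -0.091, -4.97 and 0.63, that is, low in p75High in replicates 1 and 3 and near level in replicates 2 and 4 (limma adjusted p = 0.504).

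Of 25 tested probes of signalling genes 0 passed, with 6 lower and 0 higher at an unadjusted p under 0.05, against 12.5% of all tested probes in either direction (median -0.96). The smallest p-values were those of Vav1, an exchange factor for Rac in blood cells, and Lyn, a Src-family kinase. Vav1 had ratios of -3.10, -2.71, -4.98 and -4.16 (limma adjusted p = 0.0768), and Lyn had -3.03, -4.67, -4.13 and -2.30 (limma adjusted p = 0.0945), with -2.98 by its other probe. With the scanner's own ratios both passed, at -5.42 each (limma adjusted p = 0.0375 for Vav1 and 0.043 for Lyn).

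Among 21 tested probes of other transcription factors, Fli1 was lower in p75High, 0 were higher and 20 did not pass (median -0.95). Over all tested probes 0.394% were lower. Fli1, an ETS factor of blood and endothelium, had 6.31, 6.11, 5.64 and 7.43 in p75High cells, against 10.62, 10.30, 9.09 and 12.76 in p75Low cells. The populations did not overlap, a separation in this direction seen in 3.85% of the probes read on all arrays. The ratio was -4.32 ± 0.78 (limma adjusted p = 0.0375). It did not pass with no filter (adjusted p = 0.0696), with median centring (0.0642) or without any 1 replicate (0.107 to 0.186).

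Target genes of PU.1 and the C/EBP factors were lower in p75High in 4 of 11 tested probes, with 0 higher and 7 not past the threshold, against 0.394% lower over all tested probes (median -3.80). Adgre1, a macrophage surface receptor, had a ratio of -5.87 ± 0.69, and Itgam, the alpha chain of an integrin of myeloid cells, -5.77 ± 0.33. Lyz2, the lysozyme of macrophages, had -5.54 ± 0.73, and Cd68, a lysosomal membrane protein of macrophages, -4.56 ± 0.73 (limma adjusted p = 0.0262 for the first 3 and 0.0325 for Cd68). Without any 1 replicate 0 probes of the whole array passed, and the adjusted p of these 4 genes was between 0.100 and 0.150. By array, the median ratio over the target genes was -4.62, -5.36, -5.11 and -2.34 for replicates 1 to 4. The median over the target genes was also negative in replicate 1, where the Spi1 ratio was 0.54 by its single probe. A link between the Spi1 ratio and these genes was not tested.

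**Figure D3:**
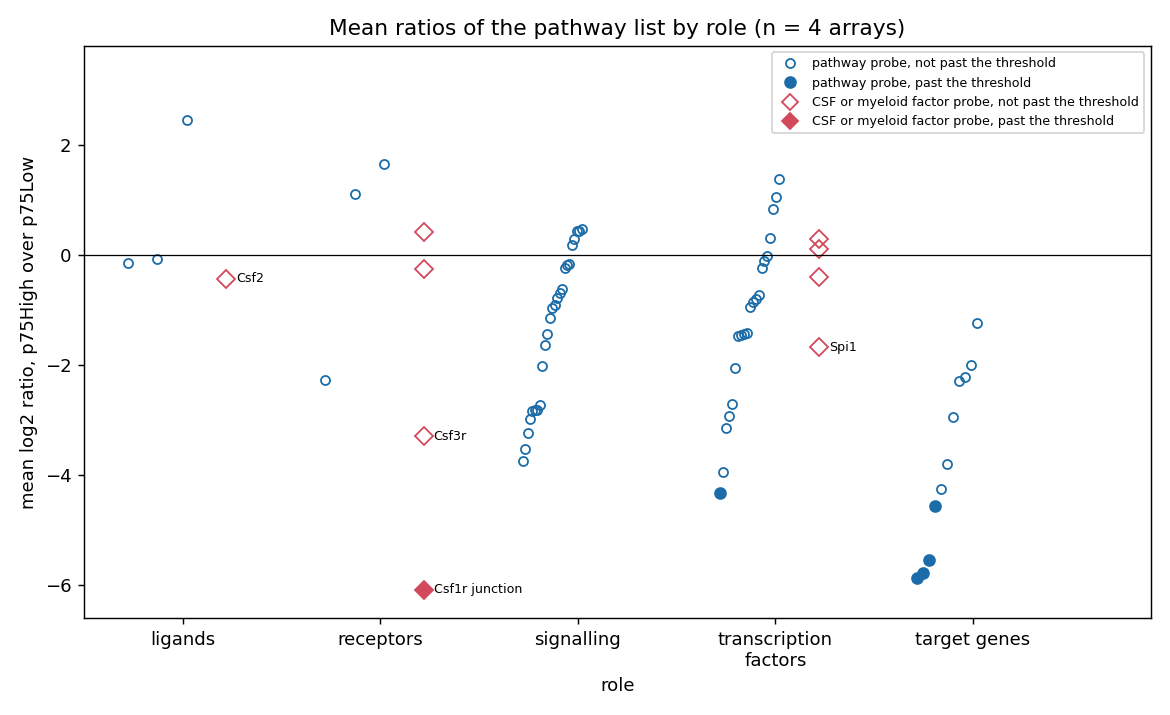
Mean log2 ratio of p75High over p75Low for each tested probe of the pathway list (circles) and of the CSF and myeloid factor genes (diamonds), by role; means are over 4 arrays, or over those left after outlier spots were removed, and filled symbols passed an adjusted p of 0.05. The filled symbols are the Csf1r junction probe (-6.08), Fli1 (-4.32) and 4 target genes (-5.87 to -4.56), all on the negative side.

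The genes whose array ratios lay nearest to those of the Csf1r junction probe were found by root mean square difference over the 4 arrays among 12860 named probes. Fcgr2a (Fcgr3 in the array file), an Fc receptor of macrophages, was nearest (0.121), with ratios of -5.61, -6.85, -6.37 and -5.80. Adgre1 (0.390), the annexin gene Anxa3 (0.393), the chemokine gene Cxcl13 (0.395) and Ctss, a lysosomal protease (0.451), followed. The 5 genes were picked for this likeness, so their values are a description.

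Markers of microglia and macrophages were also lower in p75High. Of 11 tested marker genes (15 probes), 8 genes (10 probes) were lower and 0 were higher, against 0.394% of all tested probes lower. The lists share probes: Itgam, Adgre1 and Cd68 are 3 of the 4 target genes counted as lower above, so these counts are partly the same values. Their median ratio was -4.58, and over the brightest probe of each gene it was -4.62, -5.13, -4.98 and -4.89 on the 4 arrays. Their summed log2 level was 13.1 to 13.8 in p75High cells and 17.8 to 18.1 in p75Low cells. No tested marker was below background on all arrays of either population. Of 8 neutrophil markers 3 were tested, with 0 past the threshold. Camp alone was higher at an unadjusted p under 0.05, against 12.5% of all tested probes in either direction. Its ratio was 0.87 ± 0.38, positive on all 4 arrays (limma adjusted p = 0.373). The 3 tested markers had a median of 0.18, with a summed log2 level of 9.01 to 10.4 in p75High and 9.11 to 10 in p75Low. Of 7 lymphocyte markers 2 were tested, with 0 past the threshold (median 0.065). Of 11 ensheathing and Schwann glia markers all were tested, and Ngfr was higher (median 1.13). At an unadjusted p under 0.05, 3 of their 12 probes were higher and 0 lower, against 12.5% of all tested probes in either direction. Sox10, a transcription factor of these glia, had 4.56 ± 1.90 (limma adjusted p = 0.158). Fibroblast markers had 1 of 9 probes higher and 0 lower (median -0.89), against 0.261% of all tested probes higher. They were split in direction, with 4 probes higher and 2 lower at an unadjusted p under 0.05, against 12.5% of all tested probes in either direction. Their summed log2 level was 15.9 to 16.4 in p75High and 13.7 to 15.1 in p75Low. In p75High this sum mostly follows Col1a1, whose brightest probe alone read 15.19 to 16.13. Both probes of Col1a2 had negative mean ratios (-2.71 and -0.91), so the sum does not stand for the whole list. Endothelial markers had 0 of 6 probes past the threshold (median 0.81). At an unadjusted p under 0.05, 2 of these were higher and 0 lower, against 12.5% of all tested probes in either direction. The part of these markers' cells in the Csf1r ratio was not tested.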

How the data were processed

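Per the file headers, deposited intensities give the mean brightness of each spot and the median of its local background, for Cy5 (p75High) and Cy3 (p75Low), read without normalization on design 014879 with Agilent Feature Extraction 10.5.1.1 (10.5 in the submitters' processing notes). The scanner software also deposited a log10 ratio (Cy5 over Cy3), detrended and dye-normalized, with the background correction setting off, per the file headers. The authors' value table held the same log10 ratios (largest difference 0, column medians 0). Per the labels, mRNA was amplified by a global PCR and 250 ng of cDNA labelled, which can alter ratios.

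Background was handled by normexp with an offset of 50, and dye bias by within-array loess with a span of 0.3, in limma 3.58.1 (R 4.3.3). Control spots (1639) had weight 0, and 1112 outlier readings (0.641%) were left out. Repeat spots were averaged. Of 24941 probes kept by the filter, 24872 had readings on at least 2 arrays. Levels of each channel were scaled between arrays by Aquantile. The log2 ratio was tested against 0 with lmFit and eBayes, two-sided, with Benjamini-Hochberg adjustment over all probes, and the fit was tested on simulated data. The number of arrays, 4, limits the precision.

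Samples were paired on arrays, per the series' design text, so each ratio is a within-pair difference. Channels of one array correlated at 0.127, 0.0665, 0.0677 and 0.265 after removal of group means, and at most at 0.0492 with a channel of another array.

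The genes and lists were chosen with earlier results of these data known. All 10 genes are reported. From the pathway list, genes past the threshold were named (at most 5 per role by size), or else the 2 smallest p. From each marker list at most 2 were named. Names were updated through RefSeq (GRCr8): 11150 probes matched by accession, 5116 by symbol, 3422 by an older symbol and 21324 not. Alternatives changed background correction, normalization, filter, outlier spots, unit of test, pairing and replicates.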

Additional observations from a re-analysis of the deposited data

Results flagged for a closer look

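Chance sets 1 array apart from its group in about 1 in 20 cases, and among 12 probes and 5 role medians (17 in all) this happened in 3. For the Csf1 probe at chr2:203292994-203293053 the array of replicate 3 gave 2.66, with a p75High level of 9.17, while the remaining ratios were -0.042, -0.21 and 0.13. For Cebpa the array of replicate 2 gave 0.44, while the remaining ratios were -0.031, 0.043 and -0.014. The signalling genes had a median ratio of -2.38 on the array of replicate 2, apart from -0.65, -0.71 and -0.55 elsewhere.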

How the results depend on the processing

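The Csf1r junction probe was negative and passed in 8 of 13 settings; the exceptions were the 4 that left out a replicate and the median over the gene's probes. The count of CSF and myeloid factor probes past the threshold (1) was 0 with the median over the probes of a gene and 0 without any 1 replicate. The pathway list (5) gave 3 with no filter and 0 without any 1 replicate. Over all probes (163), counts were 74 with no filter, 277 with the scanner ratios, 335 with no replicate block (165 higher and 170 lower, against 65 and 98 when paired) and 0 without any 1 replicate (2081 to 2652 probes at an unadjusted p under 0.05). With no replicate block the CSF and myeloid factor count stayed at 1 and the pathway count at 5. Signs turned for genes that never passed: Runx1 (0.10 with the scanner ratios, -0.98 to 0.54 without any 1 replicate), Cebpa (-0.00064 to 0.16) and Il5 (0.00033 with median centring, -0.12 to 0.022 without any 1 replicate). The cause was not tested, other than fewer arrays where a replicate was left out and more probes tested with no filter. Cd68 (adjusted p = 0.0597) and Cxcl13 (0.0544) did not pass with no filter. Anxa3 did not pass with the median over its probes (-4.82, limma adjusted p = 0.201), against -6.24 for the probe nearest to Csf1r. Csf1, Csf2, Csf3, Cebpb and the unplaced Csf1r probe lie near background in at least 1 population, which limits any ratio they can show. The same limit holds for Runx1 in p75Low (well above background on 2 arrays) and Csf3r in p75High (on 3 arrays).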
